A study of Mus musculus with 4 samples.

Results

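Expression of *Ncam1*, *Ncam2*, *Alcam*, *Mdga1* and *Mdga2* was followed through single cells of the *Tbx1* lineage of mouse embryos at E9.5. These 5 genes, of 32285 listed in the files, were taken by symbol. They were chosen by their measured difference between cKO and cHet, since *Ncam2*, *Alcam* and *Mdga2* had been higher in cKO in single cell types of these same libraries. Every difference between the genotypes given for the 5 genes is therefore a description with no test.

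The cells came from embryos labelled outbred Swiss Webster, while the study's methods describe its mice as kept on a mixed C57BL/6 and Swiss Webster background after backcrossing. GFP-positive, living cells were sorted from the microdissected pharyngeal region and heart. The cHet embryos were *Tbx1* Cre/+;*Kmt2d* F/+;GFP F/+ and the cKO embryos were *Tbx1* Cre/+;*Kmt2d* F/F;GFP F/+. The Cre is knocked into *Tbx1*, so both groups carried 1 functional *Tbx1* allele and recombined *Kmt2d* only where that Cre was or had been active. No embryos with both *Kmt2d* alleles intact were compared. There were 2 libraries per genotype: each Rep1 library was a pool of 4 embryos on the Next GEM kit, and each Rep2 library one of 3 embryos on the GEM-X kit, so the pool is the replicate and a replicate is also a kit. By the somite counts that the study lists, cKO embryos lay within the cHet range in Rep1. In Rep2 they lay at or above its upper end, so stage was not fully matched between the genotypes. Values are UMIs, that is, captured transcripts counted once each.

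After filtering, 33444 cells remained, 5892 to 11925 per library, with medians of 17259 to 22974 UMIs per cell. The cHet Rep1 library stood apart: it held 37093 barcodes against 9307 to 16775 in the others, and only 59.95% of its UMIs were in kept cells, against 85.8% to 91.8%. For that reason the values of both replicates are given side by side below. The libraries of Rep1 shared 87 cell barcodes and those of Rep2 shared 71. *Kmt2d*, the targeted gene, was at 17.5 and 23.9 UMIs per 1e6 UMIs (CPM) in cHet Rep1 and Rep2 and at 15.2 and 21.0 CPM in cKO Rep1 and Rep2, but these counts are per gene and not per exon, so they do not check the deletion. The study checked it by RT-qPCR at E9.5 and reported significant depletion of *Kmt2d* in cKO against *Tbx1* Cre/+ embryos.

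The cells formed 21 clusters in 14 groups, each named for the type whose markers it carried, and each name stands for cells like that type. These were ectoderm, endoderm, otic vesicle, endothelium, anterior and posterior second heart field (aSHF and pSHF), cardiac muscle, multilineage progenitors (MLPs), branchiomeric muscle progenitors (BrM), mesenchyme, neural crest and glia, 2 neuronal clusters led by *Thsd7b* and by *Hes5*, and an unnamed cluster led by *Pax3* and *Tcf15*. The *Hes5* cluster also carried markers of the neural tube, and the neural crest and glia cluster was led by *Barx1*, *Tfap2b* and *Dlx2*. Some names rest on few markers. Each mesenchyme cluster carried 3 or 4 of 9 mesenchyme markers, and no marker was common to all of them. The aSHF cluster carried 5 of 10 aSHF markers, while cardiac muscle carried 8 and pSHF 5 of the same 10. The 5 genes were left out of the genes used for clustering.

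All 5 genes encode adhesion molecules of the immunoglobulin superfamily. NCAM1 and NCAM2 bind their own kind on neighbouring cells, and NCAM1 can carry polysialic acid, which weakens that binding. ALCAM, also called CD166, binds itself and the lymphocyte receptor CD6 and is known from axon growth and from early heart muscle. MDGA1 and MDGA2 are held to the membrane by a lipid anchor and bind neuroligins, which keeps these from their partners, the neurexins. The family is best known from neurons, where NCAMs act in axon growth and bundling and MDGAs limit synapse formation.

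The genes are long. On GRCm38 (GENCODE M21), *Ncam1* (ENSMUSG00000039542) spans chr9:49502136-49798925 on the minus strand and *Ncam2* (ENSMUSG00000022762) spans chr16:81200697-81626828 on the plus strand. *Alcam* (ENSMUSG00000022636) lies at chr16:52248996-52454074 on the minus strand. *Mdga1* (ENSMUSG00000043557) lies at chr17:29827949-29970087 and *Mdga2* (ENSMUSG00000034912) at chr12:66466060-67222549, both on the minus strand. Antisense genes of the count tables overlap *Ncam1* (*Gm11149*, 588 UMIs in kept cells against 45932 of *Ncam1*) and *Mdga1* (*Gm16758*, 33 UMIs against 2774). No gene of the count tables overlaps the other three.

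RefSeq promoters of 4 of the 5 genes were at hand, *Ncam1* being the exception. The 250 bases before the start site are shown for *Ncam2* and *Mdga2*, which had the largest fitted differences between the genotypes in BrM and in mesenchyme. Capitals mark the GC box (GGGCGG, searched on both strands, here read as its reverse complement). The windows are chr16:81200447-81200696 (plus strand) and chr12:67222550-67222799 (minus strand) on GRCm38.p6.
Ncam2: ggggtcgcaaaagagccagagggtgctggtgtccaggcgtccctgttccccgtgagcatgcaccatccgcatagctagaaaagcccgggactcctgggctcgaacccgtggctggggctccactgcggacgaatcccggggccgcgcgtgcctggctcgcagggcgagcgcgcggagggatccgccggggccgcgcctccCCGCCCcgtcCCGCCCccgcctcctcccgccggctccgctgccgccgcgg
Mdga2: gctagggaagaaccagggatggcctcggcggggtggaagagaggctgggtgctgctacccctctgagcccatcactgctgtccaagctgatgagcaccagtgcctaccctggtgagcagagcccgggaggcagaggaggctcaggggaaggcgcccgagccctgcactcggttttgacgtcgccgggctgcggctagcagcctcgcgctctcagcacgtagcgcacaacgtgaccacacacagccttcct
The *Ncam2* window had 75.2% G and C, more than 96.1% of the 32851 promoter windows, and held 2 GC boxes. The *Mdga2* window had 65.6% G and C and held none. The windows of *Alcam* and *Mdga1* overlap annotated exons and are not printed, and they held 2 and 1 GC boxes. A GC box was found in 32.7% of all windows. An E-box (CANNTG, 66.2% of all windows) was found only in the *Alcam* window of the 4, as was a CCAAT box (CCAAT, 33.8%). A TATA box (TATAAA, 12.4%) and a T-box core (TCACACC, 3.33%) were in none of the 4. No match says only that these letters are not in the window.

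Levels across cell types are given in CPM, scaled together over all sums of a type and library, in the order cHet and cKO of Rep1, then cHet and cKO of Rep2. A CPM compares a gene between types and libraries, not one gene with another, since the genes differ in length and reads within introns may be counted. The types come from clusters of the same cells, so the order of types is a description.

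**Figure D1:**
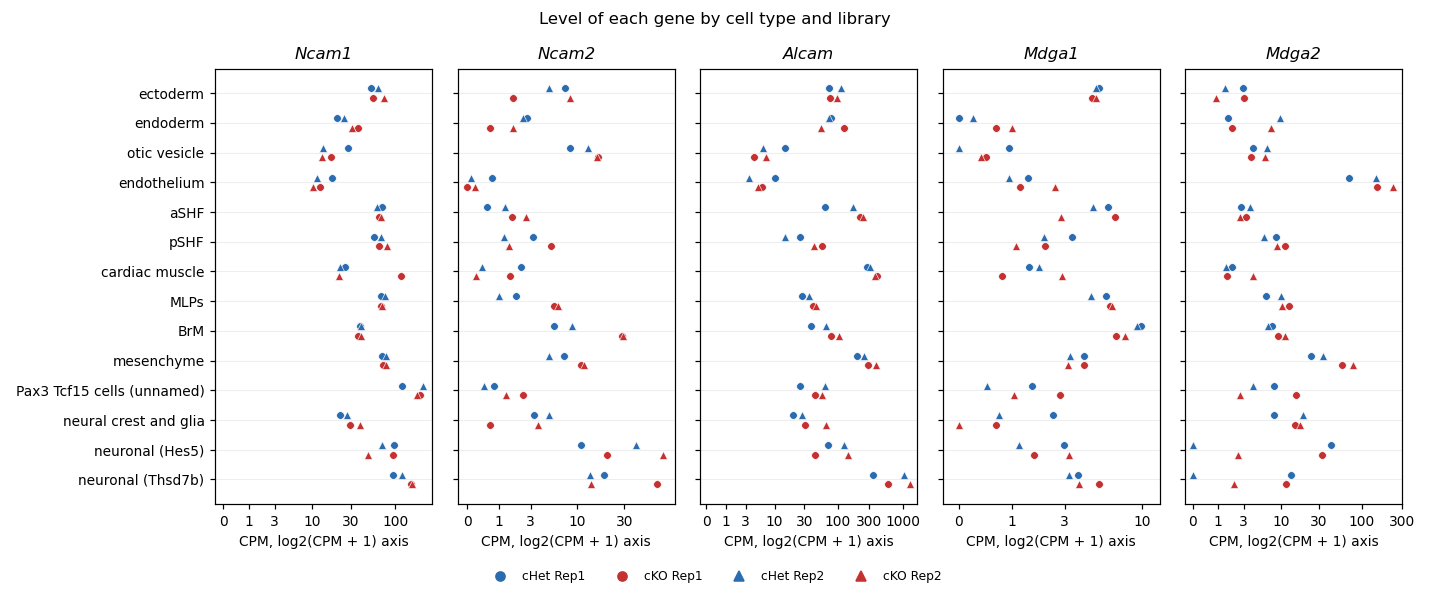
Level of the 5 genes (CPM on a log2(CPM + 1) axis) in 14 groups of cells, with 1 point per library, blue for cHet and red for cKO, circles for Rep1 and triangles for Rep2. *Mdga2* was highest in endothelium and *Alcam* in the *Thsd7b* neuronal cluster, and *Ncam2* in BrM shows red points at 28.2 and 29.4 CPM and blue points at 5.71 and 8.78 CPM.

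*Ncam1* was the most evenly spread of the 5, with a mean level 13.7 times higher in its highest group than in its lowest. It was highest in the *Pax3 Tcf15* cluster, at 122, 193, 210 and 181 CPM. The *Thsd7b* neuronal cluster followed at 94.5, 153, 122 and 159 CPM, lower in 4 of 4 libraries. Mesenchyme (70.0, 72.2, 78.1 and 77.2 CPM), MLPs, pSHF, aSHF and ectoderm came after the *Hes5* cluster, with means of 61.2 to 74.4 CPM and ranges that overlapped from each to the next. Mesenchyme was above MLPs in 4 of 4 libraries, while pSHF and aSHF were each higher in 2. Endothelium was lowest, at 17.4, 12.7, 11.4 and 10.0 CPM, below the otic vesicle in every library.

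*Ncam2* was low in most groups and highest by mean in the neuronal clusters and BrM. The *Hes5* cluster was at 10.9, 20.3, 38.9 and 71.4 CPM and the *Thsd7b* cluster at 19.1, 62.7, 13.7 and 14.02 CPM, each the higher of the pair in 2 libraries, so these do not differ beyond their spread. In each of these libraries 5 cells held 52.1% to 87.5% of the *Ncam2* UMIs of the cluster. BrM, at 5.71, 28.2, 8.78 and 29.4 CPM, came next by mean, and then the otic vesicle, at 8.37, 16.4, 12.9 and 16.1 CPM. In both cHet libraries the otic vesicle was above BrM, so the place of BrM before it rests on the cKO values. In endothelium *Ncam2* had 6, 0, 1 and 2 UMIs, in 0.656% of 457 cells, 0 of 278 cells, which allows a share of up to 1.08%, 0.193% of 519 cells and 0.305% of 655 cells.

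*Alcam* had 137093 UMIs in kept cells. It was highest in the *Thsd7b* neuronal cluster, at 344, 574, 1032 and 1258 CPM, with both Rep2 libraries above both Rep1 libraries. Cardiac muscle (279, 402, 307 and 364 CPM), mesenchyme (194, 290, 254 and 389 CPM) and aSHF (62.7, 215, 173 and 242 CPM) came next. Cardiac muscle was above mesenchyme in 3 libraries and mesenchyme above aSHF in 4. The *Hes5* cluster, ectoderm, endoderm and BrM followed with means of 71.7 to 94.6 CPM, and neighbours among them exchanged places in at least 1 library. The otic vesicle (14.9, 4.33, 6.20 and 7.01 CPM) and endothelium (10.2, 5.95, 3.45 and 5.11 CPM) were lowest, and the first was the higher in 3 libraries.

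*Mdga1* was low everywhere, with 2774 UMIs in all kept cells. It was highest in BrM, at 9.92, 6.84, 9.27 and 7.82 CPM, above the next group, MLPs (5.87, 6.24, 4.68 and 6.46 CPM), in every library and with no overlap of their ranges. In the otic vesicle it had 2, 1, 0 and 2 UMIs and in endoderm 0, 1, 1 and 7.

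*Mdga2* was a gene of endothelium and mesenchyme. Endothelium stood at 70.9, 150, 147 and 234 CPM, above mesenchyme (24.3, 58.3, 33.8 and 77.6 CPM) in 4 of 4 libraries. The next group by mean, the *Hes5* cluster, split by replicate: 42.0 and 33.0 CPM in Rep1 against 0 and 2.43 CPM in Rep2, where it had only 27 and 58 cells and 0 of 27 allows a share of up to 11.1%. All other groups had means of 2.04 to 14.97 CPM, lowest in ectoderm, where 1.16% to 2.24% of cells had a UMI. The paralogues had different highest groups. *Mdga1* was highest in BrM and *Mdga2* in endothelium, and *Ncam1* was highest in the *Pax3 Tcf15* cluster, while *Ncam2* was highest by mean in the neuronal clusters, which did not differ from each other beyond their spread.

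By the correlation of log2(CPM + 5) over the 56 values of 14 groups and 4 libraries, the genes most like each member were named, out of 12854 genes with at least 5 CPM in some group. Values of a library share its depth and kit, so r is only a description. For *Mdga2* these were *Rhoj* (r = 0.87), *Chst2* (r = 0.86) and *D5Ertd615e* (r = 0.85), all highest in endothelium and then in mesenchyme. *Rhoj* was at 401 CPM in endothelium and 71.2 CPM in mesenchyme. For *Alcam* they were *Sdk1* (r = 0.82), itself an immunoglobulin adhesion molecule, *Cacna2d1* (r = 0.76), a calcium channel subunit, and *Setbp1* (r = 0.73). For *Ncam2* they were *Zmat4* (r = 0.79), *Fmn2* (r = 0.79) and *C530008M17Rik* (r = 0.77), all highest in the neuronal clusters. For *Ncam1* they were *Sdk2* (r = 0.78), *Dpp6* (r = 0.78) and *Scube1* (r = 0.77), and for *Mdga1* *Gm13483* (r = 0.76), *Snai2* (r = 0.75) and *Ptprd* (r = 0.73). No member was closer to another than *Ncam1* to *Alcam* (r = 0.53).

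For the comparison of genotypes, each group was fitted on its own with edgeR on summed counts, with the replicate as a block, over all genes that passed its filter on low counts. Log2 fold changes of cKO over cHet from that fit are given with their standard errors (SE, 4 libraries), beside the ratio of CPM within each replicate. The SE is taken from the fit, which draws on a spread shared across genes, so it does not measure the spread between pools. Over all 175832 tests of a gene in a group, 0.534% passed a Benjamini-Hochberg adjusted p of 0.05. Both cKO libraries lay above both cHet libraries in 7.50% of these tests and below them in 7.37%. A member's call in this contrast was part of how it was chosen, so its calls are counted beside the share of all genes called and nothing is read from them. Because the RNA of a group of cells is summed, a change in the share of expressing cells and in the RNA per cell are not separated by the CPM, and both are given where the counts allow.

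**Figure D2:**
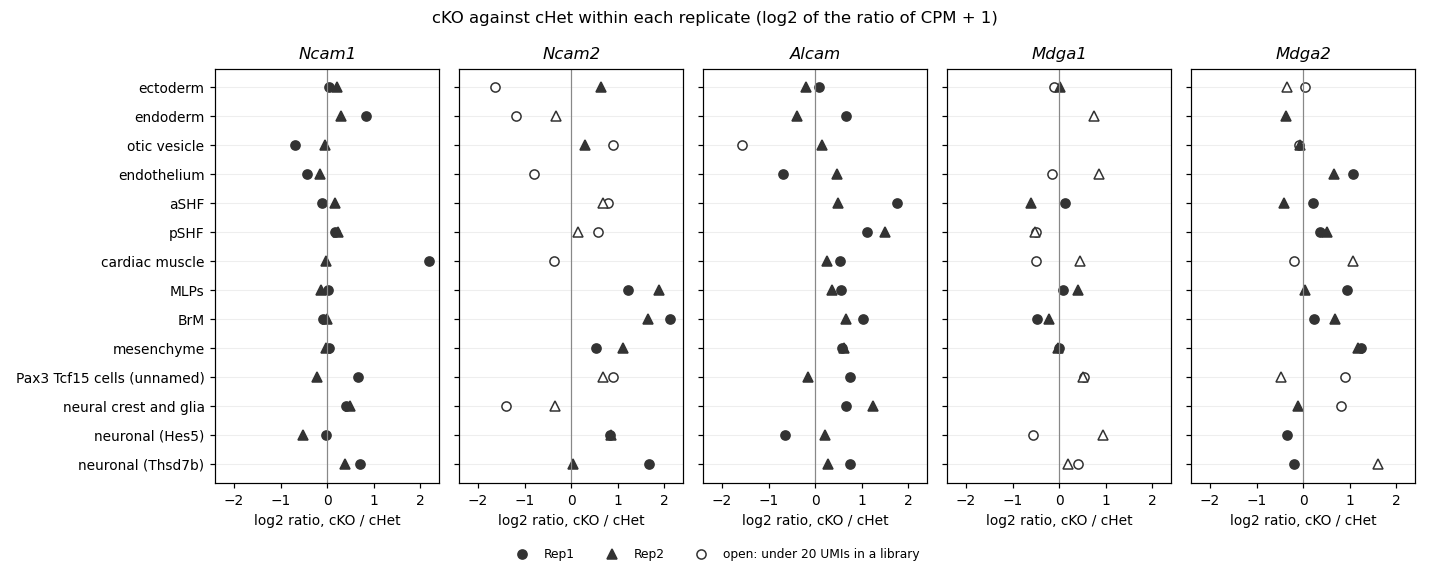
Difference of cKO from cHet within each replicate (log2 of the ratio of CPM + 1) for the 5 genes in 14 groups of cells, circles for Rep1 and triangles for Rep2, with open symbols where a library had under 20 UMIs and no symbol where both had at most 3. In both replicates *Ncam2* lies right of 0 in 9 groups, BrM, MLPs and mesenchyme among them, and *Alcam* in 8 groups. *Mdga2* does so in 5 groups, endothelium and mesenchyme among them, while *Ncam1* lies near 0 in BrM, MLPs and mesenchyme.

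*Ncam2* was higher in cKO in BrM, at 5.71 and 8.78 CPM in cHet against 28.2 and 29.4 CPM in cKO, which was 4.94-fold in Rep1 and 3.35-fold in Rep2. The fitted log2 fold change was 1.94 (SE 0.14). In BrM 0.968% of all genes were called. The libraries held 53, 297, 233 and 787 *Ncam2* UMIs, and cKO lay above cHet without overlap. Both BrM clusters showed it. In the cluster led by *Emx2* and *Vgll3*, the level was 17.8 and 22.4 CPM in cHet and 63.7 and 82.1 CPM in cKO. In the cluster led by *Lhx2* and *Plcxd3* it was 1.88 and 1.39 CPM in cHet and 12.8 and 8.14 CPM in cKO. The *Emx2* cluster made up 24.1%, 30.4%, 34.9% and 27.7% of BrM, so its share was higher in cKO in Rep1 and lower in Rep2.

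Few BrM cells carried the *Ncam2* counts. A UMI was found in 4.48% of cHet Rep1 cells (95% Wilson interval 2.89 to 6.89), 14.4% of cKO Rep1 cells (11.3 to 18.1), 6.19% of cHet Rep2 cells (4.92 to 7.77) and 10.7% of cKO Rep2 cells (9.22 to 12.5). These intervals cover counting error only. After each cell was thinned to 5000 UMIs the shares were 2.36%, 6.68%, 2.96% and 6.85%. The medians of UMIs per BrM cell were 21216, 26561, 22329 and 18159, and those of endothelium, where at most 0.656% of cells had an *Ncam2* UMI, were 20495, 27276.5, 20897 and 16581. A cell with the gene held on average 2.79, 5.12, 3.38 and 5.28 *Ncam2* UMIs, so the share of cells and the counts per cell were both higher in cKO in each replicate. Summed levels of the 13 neuronal markers in BrM were 34.6, 37.1, 35.7 and 34.3 CPM, with 11 to 13 of the markers seen, and the log2 fold change without cells that had 3 or more of these markers was 1.90. These sums are over all BrM cells. In the 137 BrM cells with at least 3 *Ncam2* UMIs the neuronal markers summed to 57.2 CPM, against 34.4 CPM in cells with none. The BrM markers summed to 449 CPM in the former and 651 CPM in the latter. What sets these cells apart was not tested.

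In MLPs *Ncam2* was at 1.88 and 0.99 CPM in cHet and 5.72 and 6.32 CPM in cKO, with a log2 fold change of 2.19 (SE 0.27), in a group where 0.835% of genes were called. The counts were small, at 23, 66, 22 and 132 UMIs, and 5 cells held 44.7% to 69.7% of them in each library. The share of MLPs with a UMI was 2.45% and 1.44% in cHet and 3.32% and 3.42% in cKO. The cells counted once gave a smaller log2 fold change, 0.95.

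In mesenchyme, where 1.57% of genes were called, *Ncam2* was at 7.25 and 4.95 CPM in cHet and 10.96 and 11.8 CPM in cKO, with a log2 fold change of 0.94 (SE 0.13). The ratio was 1.51 in Rep1 and 2.38 in Rep2, and without the cHet Rep2 library the log2 fold change was 0.58. Most of the gene lay in the mesenchyme cluster led by *Pcdh9* and *Galntl6*, at 20.1, 31.4, 11.7 and 32.5 CPM. The other 5 mesenchyme clusters ranged from 0.98 to 7.88 CPM. Of these, the one led by *Cyp26a1* and *Vcam1* was lower in cKO in Rep1, at 3.29 against 4.13 CPM, and the others were higher in cKO in both replicates.

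In the otic vesicle *Ncam2* lay higher in cKO without overlap, with a log2 fold change of 0.50 (SE 0.27) and ratios of 1.97 and 1.24. In aSHF it did so from 4, 11, 13 and 27 UMIs, with a log2 fold change of 1.20 (SE 0.44), but 1 cell held 81.8% of the UMIs in cKO Rep1 and 63.0% in cKO Rep2. In the *Hes5* cluster cKO was higher in each replicate (1.86-fold and 1.84-fold) but the genotypes overlapped, since Rep2 was above Rep1, and 0.00929% of genes were called there. In the *Thsd7b* cluster, with 0.0433% of genes called, the ratio was 3.28 in Rep1 and 1.02 in Rep2. In ectoderm, with 0.0707% of genes called, it was 0.23 in Rep1, from 41 and 4 UMIs, and 1.67 in Rep2. Over the 14 groups both cKO libraries lay above both cHet libraries in 6 and below them in 1, where 7.50% and 7.37% of all tests did so. Counted there without passing the filter on low counts were the *Pax3 Tcf15* cluster (above, from 1, 6, 2 and 5 UMIs) and endoderm (below, from 5, 1, 12 and 12 UMIs). The shares of all tests cover only genes past that filter. *Ncam2* was higher in both replicates in 9 groups and lower in both in 3, the latter (neural crest and glia, endoderm and cardiac muscle) with at most 12 UMIs in any library. It passed the filter on low counts in 9 groups and was called in 3 of them, where 0.534% of all tests of a gene in a group were called.

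*Alcam* was higher in cKO in both replicates in 8 of the 14 groups and lower in both in none, and in 7 groups the 2 cKO libraries lay above both cHet libraries, as in 7.50% of all tests. These 7 were cardiac muscle, mesenchyme, aSHF, BrM, MLPs, neural crest and glia, and pSHF. It passed the filter in all 14 and was called in 5, where 0.534% of all tests of a gene in a group were called.

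Mesenchyme held most of the *Alcam* counts, with 9747, 23975, 26818 and 40835 UMIs. The level was 194 and 254 CPM in cHet and 290 and 389 CPM in cKO, a ratio of 1.49 in Rep1 and 1.53 in Rep2 and a log2 fold change of 0.60 (SE 0.05). Within it the cluster led by *Ptchd4* and *Zic1* was highest, at 498, 756, 666 and 979 CPM, and the cluster led by *Vtn* and *Cthrc1* came second, at 260, 349, 324 and 443 CPM. Within mesenchyme 5 of the 6 clusters were higher in cKO in both replicates, by 1.12-fold to 1.75-fold, and the one led by *Kcnmb2* and *Pid1* was lower in both, at 102 and 120 CPM in cHet and 89.0 and 98.9 CPM in cKO. The *Ptchd4* cluster made up 18.0%, 19.1%, 17.6% and 19.5% of mesenchyme. The share of mesenchyme cells with an *Alcam* UMI was 54.7% and 62.7% in cHet and 62.6% and 67.0% in cKO, against 5.34% to 6.83% in endothelium.

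In the heart fields the difference was less even. *Alcam* in pSHF, where 1.10% of genes were called, was at 26.0 and 14.6 CPM in cHet and 56.9 and 43.3 CPM in cKO, with a log2 fold change of 1.37 (SE 0.13). Of the 217 UMIs in cKO Rep1, 5 cells held 72.4%, while in cKO Rep2 the top 5 cells held 23.2% of 465. Without the cHet Rep2 library the log2 fold change was 0.89. In pSHF the 10 cardiac muscle markers, of which 9 or 10 were seen in each library, summed to 358 and 444 CPM in cHet and 664 and 795 CPM in cKO, and the 13 neuronal markers to 18.9 and 23.2 CPM in cHet and 30.6 and 32.9 CPM in cKO. Their part in the difference was not tested. In aSHF, where 0.0228% of genes were called, the ratio was 3.43 in Rep1 and 1.40 in Rep2 (62.7 against 215 CPM and 173 against 242 CPM), and the log2 fold change was 1.05 (SE 0.19). Without the cHet Rep1 library it was 0.45 and without cHet Rep2 it was 1.81. In cardiac muscle, with 0.0251% of genes called, *Alcam* was at 279 and 307 CPM in cHet and 402 and 364 CPM in cKO, with a log2 fold change of 0.40 (SE 0.11) and 52 cells in cKO Rep1, without which library it was 0.25.

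In BrM *Alcam* was at 38.5 and 64.8 CPM in cHet and 79.7 and 104 CPM in cKO, with a log2 fold change of 0.83 (SE 0.09) and ratios of 2.07 and 1.60. Both BrM clusters were higher in cKO in both replicates. The share of BrM cells with a UMI was 29.7% and 40.0% in cHet and 48.3% and 48.5% in cKO. In MLPs the level was 28.0 and 35.5 CPM in cHet and 41.3 and 45.5 CPM in cKO, a log2 fold change of 0.44 (SE 0.08). In neural crest and glia, where 0.650% of genes were called, it was 19.6 and 27.4 CPM in cHet and 31.4 and 66.1 CPM in cKO, from 24 to 90 UMIs, and the log2 fold change of 1.00 (SE 0.26) was 0.43 without the cKO Rep2 library. The median UMIs per cell of this group also differed between the genotypes, at 12325.5 and 12760 in cHet and 29393 and 19256 in cKO, and after thinning to 5000 UMIs the share of cells with an *Alcam* UMI was 13.4% and 13.9% in cHet and 8.70% and 24.7% in cKO, lower in cKO in Rep1. The part of depth in the difference was not tested. In the *Thsd7b* cluster cKO was higher in each replicate (1.67-fold and 1.22-fold), but the difference between replicates was larger than that between genotypes. In the remaining groups the replicates differed in sign.

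**Figure D3:**
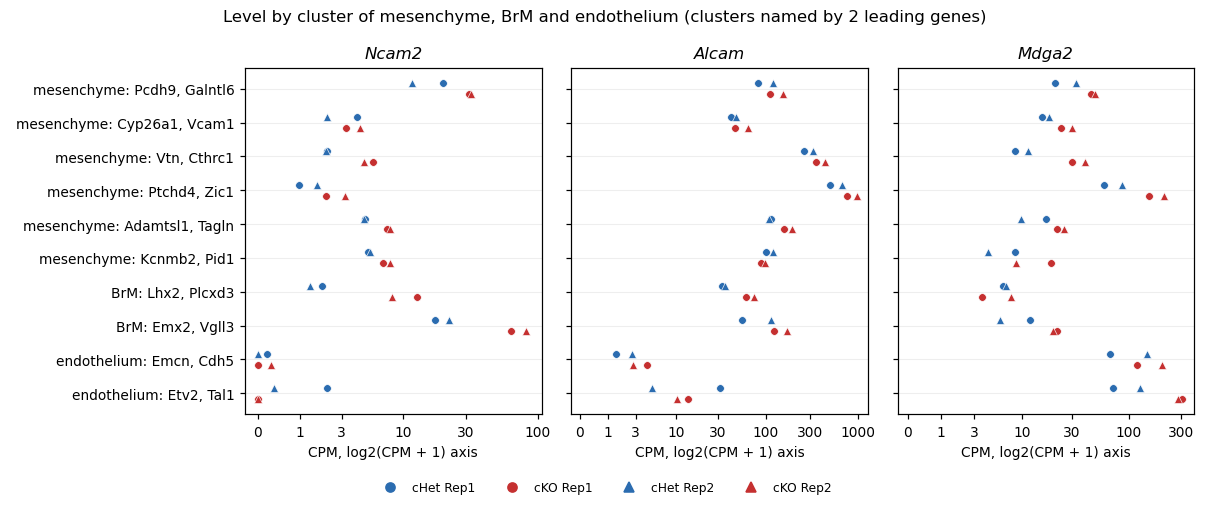
Level of *Ncam2*, *Alcam* and *Mdga2* (CPM on a log2(CPM + 1) axis) in the 10 clusters of mesenchyme, BrM and endothelium, with 1 point per library, blue for cHet and red for cKO, circles for Rep1 and triangles for Rep2. *Alcam* and *Mdga2* were both highest within mesenchyme in the *Ptchd4* and *Zic1* cluster, and *Ncam2* was highest by mean in the *Emx2* and *Vgll3* cluster of BrM. In cHet Rep1 that cluster was below the *Pcdh9* and *Galntl6* cluster of mesenchyme, at 17.8 against 20.1 CPM of *Ncam2*.

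*Mdga2* was higher in cKO in mesenchyme, at 24.3 and 33.8 CPM in cHet and 58.3 and 77.6 CPM in cKO. The ratio was 2.399 in Rep1 and 2.30 in Rep2, and the log2 fold change was 1.23 (SE 0.05). The libraries held 1220, 4825, 3575 and 8145 UMIs, and the genotypes did not overlap. All 6 mesenchyme clusters were higher in cKO in both replicates, by 1.26-fold to 3.58-fold. The *Ptchd4* and *Zic1* cluster had the highest level, at 59.4, 154, 87.5 and 211 CPM, and the cluster led by *Vtn* and *Cthrc1* the largest ratios, 3.58 and 3.46, from 8.39 and 11.4 CPM in cHet to 30.0 and 39.5 CPM in cKO. The share of mesenchyme cells with a UMI was 15.4% and 20.4% in cHet and 27.5% and 29.3% in cKO, and 6.87%, 13.4%, 9.72% and 17.2% after thinning, in the order of libraries. A cell with the gene held 2.92 and 3.77 UMIs in cHet and 4.57 and 4.78 in cKO.

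In endothelium, where 0.406% of genes were called, *Mdga2* was at 70.9 and 147 CPM in cHet and 150 and 234 CPM in cKO, with a log2 fold change of 0.87 (SE 0.09). The ratio was 2.12 in Rep1 and 1.59 in Rep2, and cKO Rep1 was only just above cHet Rep2. The log2 fold change was 0.45 without cHet Rep1, 1.37 without cHet Rep2 and 0.57 without cKO Rep2, and 0.20 with each cell counted once. In the cluster led by *Etv2* and *Tal1* the level was 72.5 and 127 CPM in cHet and 303 and 282 CPM in cKO. In the *Emcn* and *Cdh5* cluster it was 67.6 and 147 CPM in cHet and 118 and 200 CPM in cKO. The *Etv2* cluster was 31.3%, 14.7%, 26.6% and 26.7% of endothelium, lowest in cKO Rep1. The share of endothelial cells with a UMI was 27.4% and 46.2% in cHet and 34.9% and 48.1% in cKO, while the counts per cell with the gene were 4.66 and 6.56 in cHet and 10.2 and 7.97 in cKO. In cKO Rep1 5 cells held 34.5% of the UMIs. The neuronal markers summed to 27.4, 17.6, 35.3 and 75.3 CPM in endothelium, highest in cKO Rep2, and without cells that had 3 or more of them the log2 fold change was 0.86.

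*Mdga2* was lower and less even in the other groups. In BrM the log2 fold change was 0.57 (SE 0.16), in pSHF 0.51 (SE 0.23) and in MLPs 0.44 (SE 0.15), each with the 2 cKO libraries above both cHet libraries. Without 1 library these ranged from 0.34 to 0.67 in BrM, from 0.15 to 0.84 in pSHF and from 0.27 to 0.83 in MLPs. In the BrM cluster led by *Lhx2* and *Plcxd3* *Mdga2* was lower in cKO in Rep1 (3.75 against 6.35 CPM) and 1.12-fold higher in Rep2, and in the *Emx2* and *Vgll3* cluster it was 1.79-fold and 3.35-fold higher. In MLPs this came from Rep1, with a ratio of 2.06 against 1.03 in Rep2. Over the 14 groups both cKO libraries lay above both cHet libraries in 5, as in 7.50% of all tests, and below them in none. *Mdga2* was higher in both replicates in 5 groups and lower in both in 1, the otic vesicle (ratios of 0.93 and 0.95). In 8 groups the replicates differed in sign. The gene passed the filter in 13 groups and was called in 2, where 0.534% of all tests of a gene in a group were called.

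**Figure D4:**
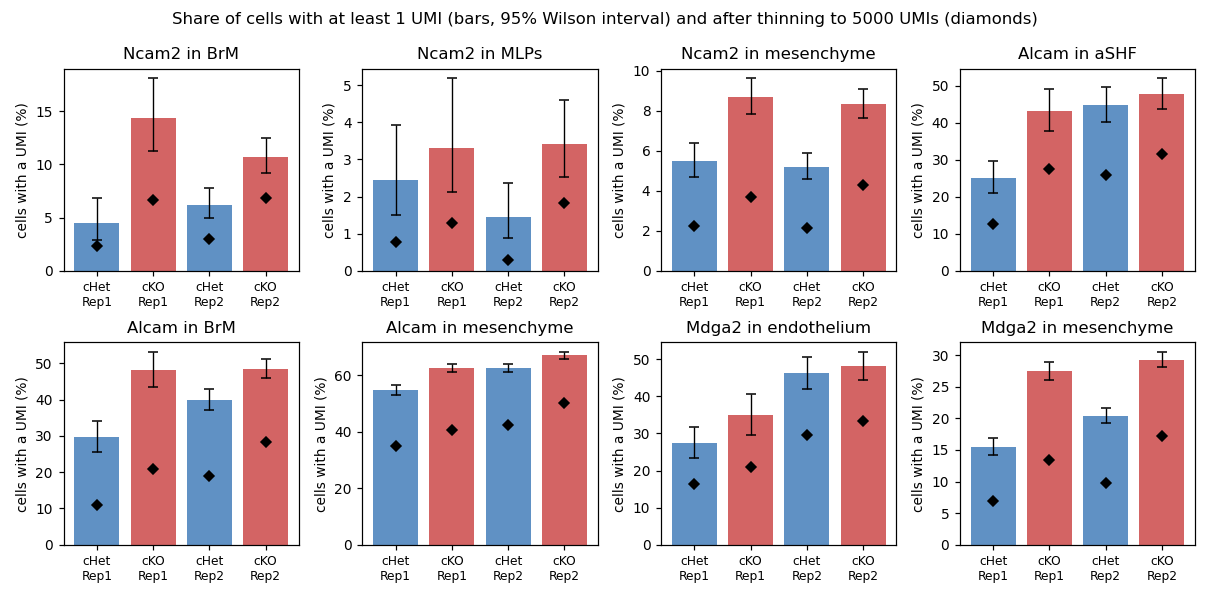
Percent of cells with at least 1 UMI in 8 pairs of gene and group, with 1 bar per library (blue for cHet, red for cKO) and its 95% Wilson interval, and diamonds for the percent after thinning each cell to 5000 UMIs. *Ncam2* in BrM goes from 4.48% to 14.4% in Rep1 and from 6.19% to 10.7% in Rep2, and *Mdga2* in endothelium from 46.2% to 48.1% in Rep2.

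*Ncam1* and *Mdga1* were called in no group, where 0.534% of all tests of a gene in a group were called. In mesenchyme, MLPs and BrM *Ncam1* had ratios of cKO to cHet between 0.92 and 1.03 in each replicate, with log2 fold changes of 0.01 (SE 0.05), -0.06 (SE 0.07) and -0.04 (SE 0.09). It was higher in both replicates in 5 groups, lower in both in 4, and in 3 groups (the *Thsd7b* cluster, with a log2 fold change of 0.54 and SE 0.11, neural crest and glia, and endoderm, where 0.328% of genes were called) cKO lay above cHet. In cardiac muscle the cKO Rep1 library was at 118 CPM against 21.5 to 25.2 CPM in the other libraries, and 5 of its 52 cells held 80.0% of its 155 UMIs. *Mdga1* was lower in cKO in BrM without overlap (9.92 and 9.27 against 6.84 and 7.82 CPM), with a log2 fold change of -0.35 (SE 0.16), and a log2 fold change of -0.02 (SE 0.12) in mesenchyme. In MLPs it lay higher in cKO without overlap (5.87 and 4.68 against 6.24 and 6.46 CPM), with a log2 fold change of 0.30 (SE 0.19). Over the 14 groups cKO lay above cHet in 3 and below in 2, where 7.50% and 7.37% of all tests did so, and the gene passed the filter in 8. Counted there without passing the filter were endoderm (above, from 0, 1, 1 and 7 UMIs) and neural crest and glia (below, from 3, 1, 1 and 0 UMIs). The shares of all tests cover only genes past the filter. In the *Pax3 Tcf15* cluster, where 0.145% of genes were called, *Ncam1* was 1.59-fold higher in cKO in Rep1 and 0.86-fold in Rep2.

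Genes that work with the family were taken from a list of 45: 12 partners and modifiers of NCAM, 6 partners of ALCAM, 6 partners of MDGAs and 21 related immunoglobulin adhesion molecules. Of 473 tests of such a gene in a group, 17 passed edgeR's quasi-likelihood test (Benjamini-Hochberg adjusted p of 0.05), 10 higher and 7 lower in cKO, which is 3.59% against the 0.534% of all genes. The list was drawn up with earlier results of these data known, so neither this share nor the p-values of its genes are independent evidence about the list. The median log2 fold change of the list was 0.01, and that of all genes lay between -0.01 and 0.01 in each group. Without the replicate block edgeR called none, and 12 tests had an unadjusted p under 0.05. DESeq2 with the block called 3. By group of cells, 5 of 37 partner genes tested were called in the otic vesicle (0.602% of all genes), 5 of 41 in mesenchyme, 4 of 39 in BrM, and 1 each in MLPs (of 41), neural crest and glia (of 19) and the *Thsd7b* cluster (of 40). edgeR called none in the other 8 groups, where 34 of 256 tests had an unadjusted p under 0.05.

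The MDGA partners made up 9 of the 17 calls, of 62 tests. *Nlgn1*, a neuroligin, was higher in cKO in 3 groups. In mesenchyme it was at 3.09 and 3.00 CPM in cHet and 5.33 and 7.88 CPM in cKO (log2 fold change 1.13, adjusted p = 0.00131 by edgeR), in BrM at 5.71 and 6.07 against 6.46 and 14.6 CPM (adjusted p = 0.0311 by edgeR), and in the otic vesicle at 8.37 and 13.8 against 18.6 and 44.8 CPM (log2 fold change 1.49, adjusted p = 0.000295 by edgeR). *Nrxn3*, a neurexin, was lower in mesenchyme, at 43.0 and 37.4 against 31.3 and 28.5 CPM. It was also lower in the otic vesicle, at 99.9 and 155.6 against 31.2 and 119.5 CPM. There it was lower in each replicate, but the genotypes overlapped. In neural crest and glia it was at 16.3 and 45.7 against 6.28 and 11.8 CPM. The median UMIs per cell of that group differed between the genotypes, as given above for *Alcam*, and the part of depth was not tested.

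Of the related adhesion molecules, *Cadm2*, a synaptic adhesion molecule, was higher in mesenchyme (49.7 and 39.4 against 65.1 and 62.3 CPM), in BrM (15.2 and 37.0 against 23.9 and 54.8 CPM) and in the otic vesicle (69.3 and 48.0 against 77.9 and 102 CPM). *Dscam* was higher in BrM (14.9 and 11.8 against 19.9 and 22.4 CPM) and *Cntn5* in the otic vesicle (15.3 and 18.3 against 28.6 and 39.0 CPM). *Chl1*, of the L1 family, was lower in the otic vesicle (11.6 and 9.17 against 1.73 and 4.10 CPM) and *Nectin2* in mesenchyme (45.8 and 51.9 against 39.0 and 44.2 CPM). The *Chl1* value of cKO Rep1 is near the floor. In the same 91 otic vesicle cells *Alcam* had 10 UMIs at 4.33 CPM, and *Chl1* was lower than that. *Cadm1* reached a mean of 1769 CPM in the *Thsd7b* cluster and was called nowhere, and *Nectin3* was called nowhere either.

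Among NCAM partners *St8sia4*, which adds polysialic acid to NCAM1, was higher in mesenchyme, at 23.7 and 33.0 CPM in cHet and 27.0 and 42.4 CPM in cKO (log2 fold change 0.28, adjusted p = 0.0316 by edgeR), in cells where *Ncam1* itself was at a ratio of 1.03 and 0.99. It was the only call in 152 tests of that group, and *Sptbn1*, *Ptk2* and *Fgfr2* were among the genes not called. Of the ALCAM partners none was called by edgeR in 70 tests, with 2 at an unadjusted p under 0.05, and none by DESeq2. They included *Adam10*, a protease that sheds ALCAM, with a mean of 246 CPM in endothelium and 111 CPM in mesenchyme, *Msn*, at 383 CPM in endothelium, and *Sdcbp*.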

How the data were processed

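Droplet 3′ single-cell libraries were made from GFP-positive sorted cells. The authors deposited raw UMI counts per gene and barcode, made with Cell Ranger on mm10 (version 8.0.1 per the labels, while the file headers give 7.0.1 for Rep1). Their later correction for free RNA and integration are not in these counts. The members and lists were chosen with earlier results of these data known.

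Barcodes with at least 3000 genes, at most 10% mitochondrial and 5% hemoglobin UMIs were kept, and doublets called from simulated pairs were removed. Variable genes were picked with scanpy 1.11.5 (2000 variable genes, the 5 members left out). The replicates were aligned on 30 components with a Harmony-type correction. Cells were then clustered with leidenalg 0.10.2 (20 neighbours, resolution 0.8). The alignment served the clustering only and did not change the counts. Cell types were named from marker lists. Free RNA was not subtracted.

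UMI counts were summed per library and type (at least 20 cells per library) and fitted with edgeR 4.0.16 (TMM, filterByExpr, quasi-likelihood test) with the replicate as a block, and with DESeq2 1.42.0 as an alternative. The edgeR fit was tested on simulated data. The replicate number marks the kit, and deviations of same-numbered libraries correlated with r of 0.656 to 0.849 in the 14 types. The libraries held 179454146 to 234726019 UMIs. With 2 pools per genotype and the replicate as a block, p-values and SEs rest on how the difference varied between replicates, pooled in part over genes. They do not measure the spread between pools. Named were the 5 members, every partner gene called, up to 3 more partner genes of each group by mean CPM, the 3 genes most like each member, and *Kmt2d*. A partner gene is counted in the totals but not reported here.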

Additional observations from a re-analysis of the deposited data

How the results depend on the processing

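The log2 fold changes below are of 15 pairs of gene and type (*Ncam2* in 3, *Alcam* in 7 and *Mdga2* in 5) of the 3 genes named in the choice of members, picked because both cKO libraries lay above both cHet libraries with at least 20 UMIs in each, so their sign was largely fixed by that choice and only their size is followed. When each cell was counted once whatever its UMIs, it moved to 1.14 for *Ncam2* in BrM and 0.95 in MLPs, to 0.19, 0.48, 0.21, 0.34 and 0.48 for *Alcam* in mesenchyme, BrM, MLPs, neural crest and glia, and pSHF, and to 0.20, 0.71 and 0.25 for *Mdga2* in endothelium, mesenchyme and pSHF. With cells thinned to 5000 UMIs it was 0.52 for *Alcam* in mesenchyme and 1.19 and 0.90 for *Mdga2* in mesenchyme and pSHF. Within 1 replicate the value is the log2 ratio of CPM + 1 and not a fit, so the formula changes as well, and Rep1 alone gave 0.54 and 1.23 for *Ncam2* in mesenchyme and MLPs and 0.37 and 0.23 for *Mdga2* in pSHF and BrM, and Rep2 alone gave 1.18 for *Mdga2* in mesenchyme and 0.04 in MLPs, the lowest of all. Leaving out 1 library at a time, in fits that also had no block, gave 1.61 to 2.65 for *Ncam2* in MLPs, and for *Alcam* 0.44 to 0.75 in mesenchyme, 0.56 to 1.17 in BrM, 0.43 to 1.44 in neural crest and glia and 0.89 to 1.85 in pSHF. For *Mdga2* it gave 0.45 to 1.37 in endothelium, 1.06 to 1.41 in mesenchyme and 0.15 to 0.84 in pSHF. The cause was not tested.

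Against 17 partner calls, edgeR made 0 without the replicate block (12 at an unadjusted p under 0.05), DESeq2 with the block made 3, and edgeR made 5 with thinned cells, 10 without cells with neuronal markers and 30 with no filter on low counts. Without any 1 library it made 0 to 0 (8 to 20 at an unadjusted p under 0.05), but an arm then holds 1 library, assumed to vary like the other arm, so this says nothing about stability. Without the block the value for *Ncam2* in BrM was 1.99. Genes with under 20 UMIs in a library, such as *Mdga1* in most types, are limited by depth.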
